A study of Mus musculus with 31 samples.

Results

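Interferon-stimulated genes (ISGs) are the genes that a cell switches on when type I interferon binds its receptor. The 37 ISGs described here were taken by symbol from a list, and all 37 were among the 24411 entries of the deposited count table. All 37 also passed the filter on low counts and stood among the 12337 genes tested.

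Their expression was read from 9 RNA-seq libraries of sorted Ly6C-high monocytes, the inflammatory monocytes of mouse blood, from C57BL/6J mice. The cells were sorted as CD11b+, Ly6G-, Ly6C-high and MHC-II-. Healthy blood (3 libraries) came from mice without a tumor, and LLC blood (3 libraries) from mice with Lewis lung carcinoma (LLC), a mouse lung tumor cell line, growing under the skin. LLC tumor (3 libraries) came from such tumors. The model is 1 transplanted line, no genotype, age, sex or drug is given, and the sources used here do not say whether LLC blood and LLC tumor came from the same mice or whether a library is 1 mouse. P-values therefore measure the spread between these libraries, which may be technical. The other 22 of the 31 samples in the series are chromatin assays and were not analysed here.

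Totals ran from 10457492 to 20706412 counts per library. Levels are in CPM, a gene's share of all counts in its library on a fixed scale, given as mean ± SD over 3 libraries. CPM depends on transcript length, so levels are compared between libraries and not between genes. Log2 fold changes with their standard error (SE) come from 1 edgeR fit over the 9 libraries, and genes with an adjusted p below 0.05 are said to be called higher or lower. That fit rescales each library by its TMM factor, which was 0.798 for LLC tumor 1 and 0.968 to 1.07 for the others, so fold changes that involve the tumor lie above the ratio of the CPM means. LLC tumor 1 stood apart in other ways: its log2 CPM correlated at 0.967 and 0.972 with the other tumor libraries, which correlated at 0.993 with each other. Where leaving it out changed a call in a comparison with LLC tumor, this is given beside the gene or its group. For LLC blood against healthy blood only the number of calls without it is given, apart from single genes.

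The sorting gene Ly6c2 was at 272 to 472 CPM in LLC tumor, where LLC blood had 1099 to 1237 CPM and healthy blood 1571 to 1728 CPM. Itgam, which encodes CD11b, was at 893 to 949 CPM in healthy blood, 1337 to 1490.5 CPM in LLC blood and 3193 to 3720 CPM in LLC tumor, and the monocyte receptor Ccr2 was at 1018 CPM or more in every library. In these bulk samples, fewer cells of a type and less RNA per cell cannot be told apart.

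As background, type I interferons (interferon-alpha and interferon-beta) bind the receptor pair IFNAR1 and IFNAR2. The kinases TYK2 and JAK1 then activate STAT2, which joins IRF9 in the complex ISGF3. ISGF3 binds the interferon-stimulated response element in the promoters of ISGs. Their products sense foreign nucleic acid, cut or edit RNA, block translation or trap viruses at membranes, and some feed back on the pathway. Monocytes are among the cells in which this program can be read in blood.

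The response element was searched for as the letters GAAANNGAAA (on the other strand TTTCNNTTTC) in RefSeq promoter windows of build GRCm38.p6, from 250 bases before to 50 bases after a start site. A window was found for 27 of the 37 genes, and 12 of these 27 (44.4%) held a match, against 1079 of 27025 genes (3.99%) with any window. Matches can overlap each other. The 12 genes were Bst2, Eif2ak2, Ifih1, Ifit1, Ifit3, Ifitm3, Isg15, Oas1a, Oas3, Rsad2, Stat2 and Trim30a. In 9 of the 12 a match lay upstream of the start site. In Eif2ak2, Ifih1 and Ifitm3 every match lay after it. A match is a description of these letters in this window and not a measured binding site. The stretches below are shown as examples of how the match is arranged, single, repeated or overlapping, and all 6 lie upstream of the start site. They are from Isg15 (chr4:156200855-156200916, minus strand), Ifit1 (chr19:34640765-34640833, plus strand), Ifit3 (chr19:34583353-34583436, plus strand), Rsad2 (chr12:26456543-26456592, minus strand), Bst2 (chr8:71537567-71537622, minus strand) and Oas1a (chr5:120907526-120907565, minus strand). Each is written 5′ to 3′ along its gene, with the bases of a match in capitals.
Isg15: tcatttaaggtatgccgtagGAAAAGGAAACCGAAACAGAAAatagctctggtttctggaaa
Ifit1: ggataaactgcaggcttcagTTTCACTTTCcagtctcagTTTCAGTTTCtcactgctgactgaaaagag
Ifit3: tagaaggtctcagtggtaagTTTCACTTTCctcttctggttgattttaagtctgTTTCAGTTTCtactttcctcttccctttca
Rsad2: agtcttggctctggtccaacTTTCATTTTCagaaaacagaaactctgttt
Bst2: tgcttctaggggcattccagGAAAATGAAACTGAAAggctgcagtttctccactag
Oas1a: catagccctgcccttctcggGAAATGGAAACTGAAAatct

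Isg15 has 3 overlapping matches in its run, Bst2 and Oas1a have 2 overlapping ones, Ifit1 and Ifit3 have 2 separate ones, and Rsad2 has 1.

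LLC blood against healthy blood asks how circulating monocytes differ when a mouse carries a tumor. Most of the 37 ISGs were at lower levels in LLC blood: 31 had a negative and 6 a positive log2 fold change, with a median of -0.39, against -0.01 over all genes tested. In 24 genes every LLC blood library lay below every healthy blood library, a pattern seen in 23.8% of all genes, and in 6 every LLC blood library lay above, seen in 27.5% of all genes. Few passed the test of single genes. Ifi44, Ifit3, Bst2 and Isg20 were called lower (4 of 37, against 9.61% of all genes called lower), and Eif2ak2 was called higher (1 of 37, against 14.0% of all genes called higher). At an unadjusted p under 0.05, 10 were lower and 2 higher, and the share of all genes under that limit is not given here.

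This count depended on which libraries shared the fit. With only the 6 blood libraries, 24 of the 37 were called lower (20.9% of all genes) and 1 higher (21.4% of all genes). The fold changes were nearly the same in both fits and the errors were not: Isg15, for example, had a log2 fold change of -1.10 ± 0.43 SE (adjusted p 0.0982, edgeR) with all 9 libraries and of -1.11 ± 0.11 SE (adjusted p 0.000177) with the 6. The 9-library fit takes in the spread among the tumor libraries, which was wide for these genes, as described further on. Without LLC tumor 1, 20 were called lower (22.4% of all genes), and without LLC tumor 2, 19 (10.8% of all genes). Leaving out any 1 healthy blood library, LLC blood 2 or LLC blood 3 left 1 called lower (3.67% to 6.74% of all genes). Leaving out LLC blood 1 or LLC tumor 3 left 2 (7.36% and 8.65% of all genes).

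**Figure D1:**
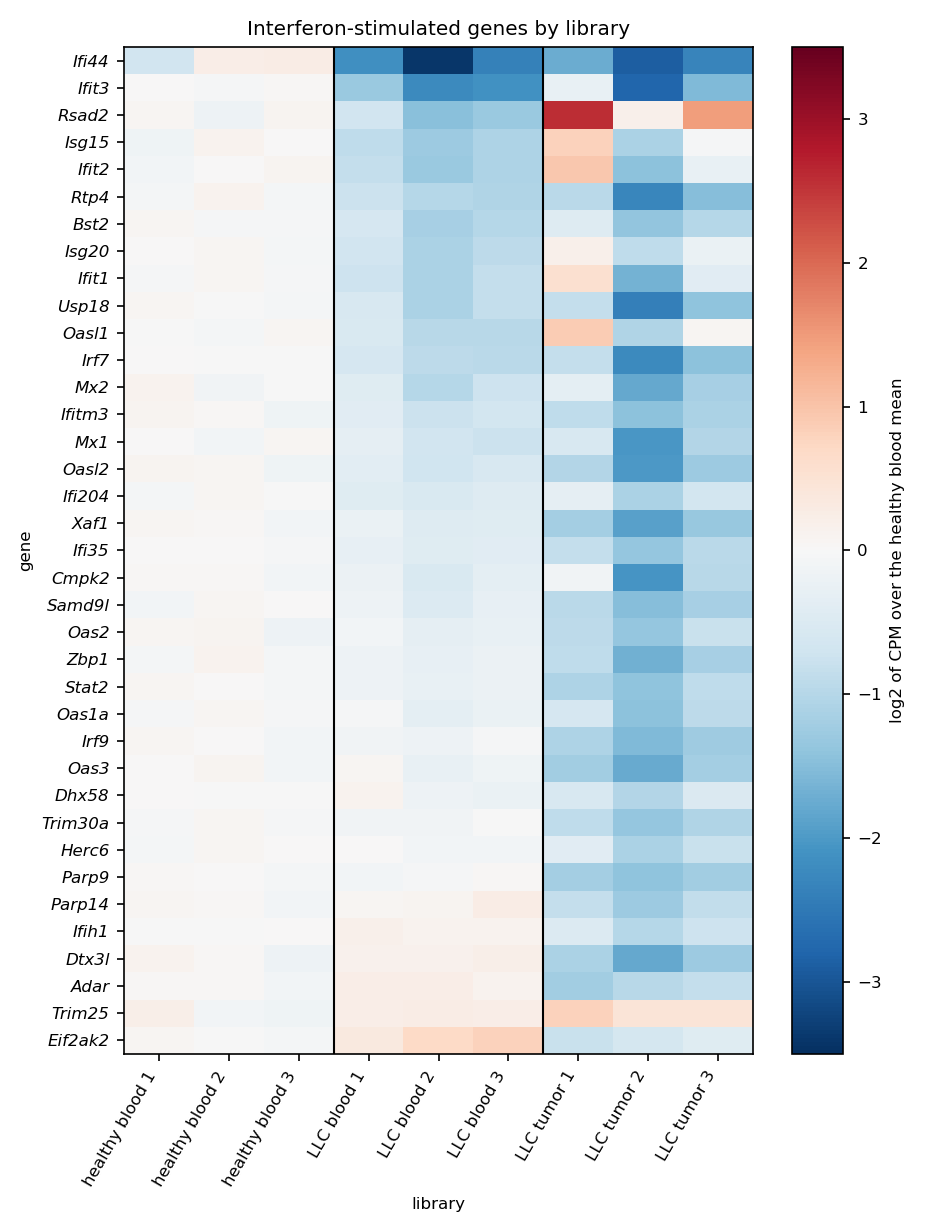
Each row is 1 of the 37 genes, ordered by fold change between LLC blood and healthy blood, and each column is 1 library. Color gives the log2 of CPM over the healthy blood mean; rows from Ifi44 down are blue in LLC blood, the rows of Trim25 and Eif2ak2 at the bottom are not, and LLC tumor 2 is bluer than LLC tumor 1 in most rows.

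Among the transcription factors of the pathway, Irf7, which amplifies interferon production, was at 530.2, 515 and 516 CPM in healthy blood and at 347, 275 and 273 CPM in LLC blood. The groups did not overlap, and the log2 fold change was -0.83 ± 0.34 SE (adjusted p 0.104). With the 6 blood libraries alone Irf7 was called lower (-0.84, adjusted p 0.000396). Stat2, the signal-carrying part of ISGF3, stood at -0.24 ± 0.15 (adjusted p 0.271), and Irf9, the DNA-binding part of ISGF3, at -0.14 ± 0.16 (adjusted p 0.564). With the 6 blood libraries alone Stat2 was called lower (-0.24, adjusted p 0.0126), as it was without LLC tumor 2 (adjusted p 0.0422), and Irf9 was not called with the 6.

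The IFIT proteins bind foreign or uncapped RNA and hold back its translation. Ifit3 (Ensembl ENSMUSG00000074896) was at 159, 151 and 160.0 CPM in healthy blood and at 63.9, 33.7 and 36.3 CPM in LLC blood. LLC blood 1 was the highest of its group, and still lay far below healthy blood. Ifit3 fell from 156 ± 4.95 to 44.6 ± 16.8 CPM (SD, n = 3), a log2 fold change of -1.85 ± 0.57 SE (adjusted p 0.0451, edgeR). The call was lost without any 1 of the 6 blood libraries or without LLC tumor 3, with adjusted p up to 0.153 over the alternatives. Ifit3 has a near copy, Ifit3b, and had non-whole counts in all 9 libraries, as genes do that share reads. Added together, Ifit3 and Ifit3b lay between 172 and 189 CPM in healthy blood and between 38.7 and 73.7 CPM in LLC blood, so the sum did not overlap either. Ifit2, at 88.7, 95 and 101 CPM in healthy blood, and Ifit1, at 46.8, 50.8 and 46.5 CPM, were lower in every LLC blood library. Ifit2 had a log2 fold change of -1.09 ± 0.52 SE (adjusted p 0.165) and Ifit1, which also shares reads, of -0.90 ± 0.47 SE (adjusted p 0.201). Ifit2 and Ifit1 were called lower with the 6 blood libraries alone.

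Ifi44 (ENSMUSG00000028037), an interferon-induced cytoplasmic protein, had the lowest fold change of all 37 and the lowest counts. Its level was 7.79, 14.6 and 14.7 CPM in healthy blood and 2.77, 1.18 and 2.41 CPM in LLC blood. Both groups spread widely for a gene this low, without overlap. Ifi44 fell from 12.4 ± 3.95 to 2.12 ± 0.838 CPM, a log2 fold change of -2.57 ± 0.44 SE (adjusted p 0.00346), and this call held in all 18 alternatives (-2.81 to -2.27).

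Bst2 (ENSMUSG00000046718), tetherin, holds budding virus at the cell surface. It was at 152, 142 and 140.1 CPM in healthy blood and at 95.9, 64.5 and 72.0 CPM in LLC blood. All LLC blood libraries were below all healthy ones, with LLC blood 1 the nearest. Bst2 fell by 0.93 ± 0.28 SE on the log2 scale (adjusted p 0.0386), and the call was lost without any healthy blood library, without LLC blood 2 or without LLC blood 3 (adjusted p up to 0.136). The other membrane proteins lay on the same side: Rtp4, a chaperone of membrane receptors, had -0.96 ± 0.31 SE (adjusted p 0.0536), and Ifitm3, which blocks entry of enveloped viruses, -0.62 ± 0.21 SE (adjusted p 0.0590). Rtp4 and Ifitm3 were called lower with the 6 blood libraries alone. The level of Ifitm3 lay between 1526 and 1817 CPM in healthy blood and between 1001 and 1278 CPM in LLC blood.

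Isg20 (ENSMUSG00000039236) is an exonuclease that degrades single-stranded RNA. Its level was 31.0, 32.3 and 29.2 CPM in healthy blood and 19.5, 14.4 and 16.4 CPM in LLC blood, again with LLC blood 1 highest and no overlap. Isg20 fell by 0.91 ± 0.28 SE on the log2 scale (adjusted p 0.0450). This call went in the same 7 alternatives as that of Ifit3, with adjusted p up to 0.151. Rsad2, or viperin, an enzyme that makes a chain-terminating nucleotide, was at 81.3, 69.2 and 83.7 CPM in healthy blood and at 49.0, 28.5 and 31.8 CPM in LLC blood. Its groups did not overlap, and its log2 fold change was -1.14 ± 0.55 SE (adjusted p 0.172). Rsad2 was called lower with the 6 blood libraries alone.

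Isg15, a ubiquitin-like protein that is attached to other proteins, was at 67.2, 81.3 and 74.7 CPM in healthy blood and at 40.1, 31.0 and 35.2 CPM in LLC blood. Every LLC blood library lay below every healthy one. Usp18, which removes Isg15 and blocks the interferon receptor, had a log2 fold change of -0.84 ± 0.36 SE (adjusted p 0.118). Usp18 was called lower with the 6 blood libraries alone. The ligases Herc6 (-0.09 ± 0.21, adjusted p 0.799) and Trim30a (-0.11 ± 0.17, adjusted p 0.680) lay near 0, and their groups overlapped.

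None of the OAS family was called. Its enzymes make the signal that activates RNase L, and Oasl1 is a member without that activity. Oasl1 had -0.84 ± 0.44 SE (adjusted p 0.194) and Oasl2 -0.57 ± 0.26 SE (adjusted p 0.150), and both were called lower with the 6 blood libraries alone. Oas1a (-0.23), Oas2 (-0.25) and Oas3 (-0.13) had smaller log2 fold changes, with adjusted p from 0.326 to 0.671. With the 6 blood libraries alone Oas1a was called lower as well (-0.24, adjusted p 0.0443), and Oas2 and Oas3 were not. The dynamin-like GTPases Mx1 (-0.60 ± 0.34 SE, adjusted p 0.239) and Mx2 (-0.72 ± 0.35 SE, adjusted p 0.172) were not called. Mx1 and Mx2 were called lower with the 6 blood libraries alone. Both share reads with other genes, since their counts were non-whole in every library.

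The remaining genes without a call were, in log2 fold change, Ifi204 at -0.49 (a DNA sensor with near copies), Xaf1 at -0.40 (a factor that favors apoptosis), Ifi35 at -0.39 and Cmpk2 at -0.39 (a mitochondrial nucleotide kinase). Samd9l followed at -0.34, the nucleic acid sensor Zbp1 at -0.25, the RNA sensor Dhx58 at -0.11 and the ADP-ribosyltransferase partner Parp9 at -0.06. Of these 8, Ifi204, Xaf1, Ifi35, Cmpk2, Samd9l and Zbp1 were called lower with the 6 blood libraries alone, and Dhx58 and Parp9 were not.

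The 6 genes with a positive fold change in LLC blood were Eif2ak2, Trim25, Adar, Dtx3l, Ifih1 and Parp14. Eif2ak2 (ENSMUSG00000024079), the kinase PKR that stops translation when it binds double-stranded RNA, was at 107, 99.8 and 96.5 CPM in healthy blood and at 127, 164 and 176 CPM in LLC blood. LLC blood 1, the highest of its group for most of the 37 genes, was the lowest here. Eif2ak2 rose from 101 ± 5.28 to 156 ± 25.2 CPM (SD, n = 3), a log2 fold change of 0.60 ± 0.12 SE (adjusted p 0.00729), and was called higher in all 18 alternatives (0.50 to 0.73).

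The others that lay against the majority did not pass the test. Trim25, a ubiquitin ligase that acts on RNA sensing, was at 281, 229.9 and 219 CPM in healthy blood and at 288, 289 and 287 CPM in LLC blood (log2 fold change 0.22 ± 0.18 SE, adjusted p 0.410). Adar, which edits adenosine to inosine in double-stranded RNA, was at 228, 228 and 209 CPM and then at 262, 259 and 242 CPM (0.17 ± 0.07 SE, adjusted p 0.130). In both genes the groups did not overlap, and in Trim25 the gap was narrow. Dtx3l, a ubiquitin ligase that works with Parp9, was at 204, 195 and 167 CPM in healthy blood and 209, 209 and 218 CPM in LLC blood (0.14 ± 0.20 SE, adjusted p 0.656). Ifih1, the sensor MDA5 of long double-stranded RNA, went from 126, 128 and 129 CPM to 146, 138 and 139 CPM (0.12 ± 0.17 SE, adjusted p 0.658). Parp14, an ADP-ribosyltransferase, was at 409, 401 and 367 CPM in healthy blood and 413, 418 and 469 CPM in LLC blood (0.12 ± 0.16 SE, adjusted p 0.648). In Dtx3l, Ifih1 and Parp14, too, every LLC blood library was above every healthy one. After TMM scaling, 3 genes were higher (25.7% of all genes) and 24 lower (26.1% of all genes) without overlap.

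**Figure D2:**
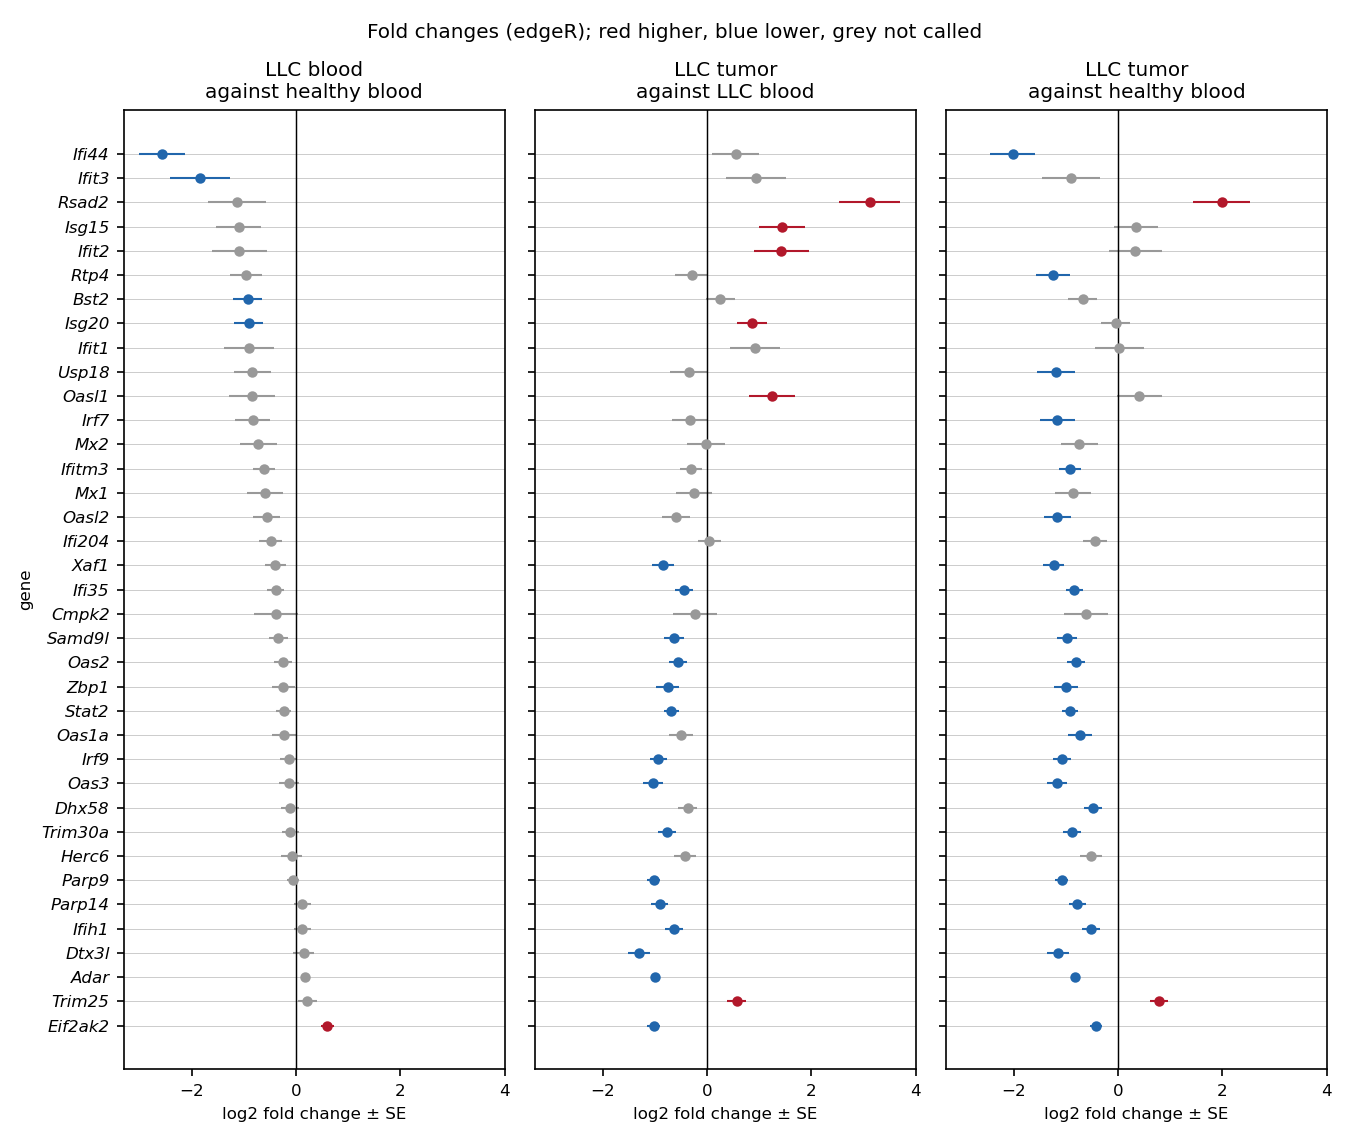
Points give the log2 fold change of each gene and bars its SE in the 3 comparisons (edgeR, 3 libraries a group), with red for called higher, blue for called lower and grey for not called. In the left panel 31 of 37 points lie below 0 and 5 are colored; in the middle panel 15 are blue and 6 red.

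LLC tumor against LLC blood asks how monocytes in the tumor differ from those in the blood of tumor-bearing mice. Here the 37 genes were called in both directions, as were all genes tested. Of the 37, 15 were called lower (40.5%, against 31.7% of all genes tested). Another 6 were called higher (16.2%, against 29.6% of all genes tested). The median log2 fold change was -0.38, against -0.03 over all genes. The called genes that were higher were Rsad2, Isg15, Ifit2, Oasl1, Isg20 and Trim25. Those that were lower were Dtx3l, Oas3, Parp9, Eif2ak2, Adar, Irf9, Parp14, Xaf1, Trim30a, Zbp1, Stat2, Ifih1, Samd9l, Oas2 and Ifi35. In 20 genes every tumor library lay below every LLC blood library (44.8% of all genes), and in 2, Rsad2 and Trim25, every one lay above (23.5% of all genes). After TMM scaling these counts were 15 (34.5% of all genes) and 2 (31.3% of all genes).

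LLC tumor 1 weighed on this comparison. Without it, 26 genes were called lower (32.8% of all genes) and 3 higher (34.3% of all genes), and the median was -0.77. The 3 that were still called higher were Rsad2, Isg15 and Trim25. Without LLC blood 2, or without LLC blood 3, 1 gene was called higher (26.8% and 27.2% of all genes).

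Rsad2 (ENSMUSG00000020641) had the largest fold change. In LLC tumor it was at 469, 87.8 and 216 CPM, against 49.0, 28.5 and 31.8 CPM in LLC blood. LLC tumor 2, the lowest tumor library, still lay above every blood library of either group, and the tumor libraries differed 5.34-fold among themselves. Rsad2 rose from 36.4 ± 11 to 257 ± 194 CPM (SD, n = 3), a log2 fold change of 3.12 ± 0.58 SE (adjusted p 0.00124). Without LLC tumor 1 it was 2.20 (adjusted p 0.000414), and the call held in all 18 alternatives. Its neighbour Cmpk2, which lies 12664 bases away on chromosome 12 in RefSeq GRCm38.p6, was at 94.0, 24.6 and 52.0 CPM in LLC tumor and 70.7 to 89.1 CPM in LLC blood. Those groups overlapped, and the log2 fold change of Cmpk2 was -0.23 ± 0.42 SE (adjusted p 0.661). Without LLC tumor 1 Cmpk2 was called lower (-0.93, adjusted p 0.0101).

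Isg15 was at 131, 34.7 and 72.2 CPM in LLC tumor and 31.0 to 40.1 CPM in LLC blood. The groups overlapped, since LLC tumor 2 fell within the range of LLC blood. Isg15 was called higher, with a log2 fold change of 1.44 ± 0.44 SE (adjusted p 0.0176), and at 0.73 (adjusted p 0.0318) without LLC tumor 1. The call was lost without LLC blood 2 or LLC blood 3 (adjusted p up to 0.0618).

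The IFIT genes followed the same order of libraries. Ifit2 was at 184, 34.8 and 79.5 CPM in LLC tumor and at 52.8, 38.5 and 44.9 CPM in LLC blood, and LLC tumor 2 lay below all LLC blood libraries. Ifit2 was called higher with a log2 fold change of 1.42 ± 0.53 SE (adjusted p 0.0404), but 10 of 18 alternatives lost the call, among them the one without LLC tumor 1 (0.47, adjusted p 0.175). Ifit3, at 132, 22.7 and 54.0 CPM in LLC tumor, was not called (0.94 ± 0.57 SE, adjusted p 0.180), and its fold change was -0.07 without LLC tumor 1. Without LLC tumor 2 it was called higher (1.39, adjusted p 0.0184). Ifit1, at 71.3, 15.4 and 36.2 CPM in LLC tumor and 29.2, 22.4 and 26.9 CPM in LLC blood, was not called either (0.92 ± 0.48 SE, adjusted p 0.122). For all 3 genes LLC tumor 1 was above and LLC tumor 2 below every LLC blood library.

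Oasl1 was at 71.9, 18.9 and 40.5 CPM in LLC tumor, 27, 19.8 and 19.9 CPM in LLC blood and 38.4, 37.5 and 41.0 CPM in healthy blood, with a log2 fold change of 1.25 ± 0.44 SE (adjusted p 0.0325). Isg20 was at 34.7, 16.6 and 26.0 CPM in LLC tumor, with 0.86 ± 0.29 SE (adjusted p 0.0257). Both sets of libraries overlapped, and both calls were lost in 4 alternatives, namely without LLC tumor 1, LLC blood 2 or LLC blood 3 and with only the 6 libraries compared (adjusted p up to 0.0982 and 0.0937). Trim25, at 427, 333 and 335 CPM in LLC tumor, was above every LLC blood library (287 to 289 CPM) and was called higher (0.57 ± 0.18 SE, adjusted p 0.0193). Its call was lost without any 1 LLC blood library (adjusted p up to 0.0614).

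**Figure D3:**
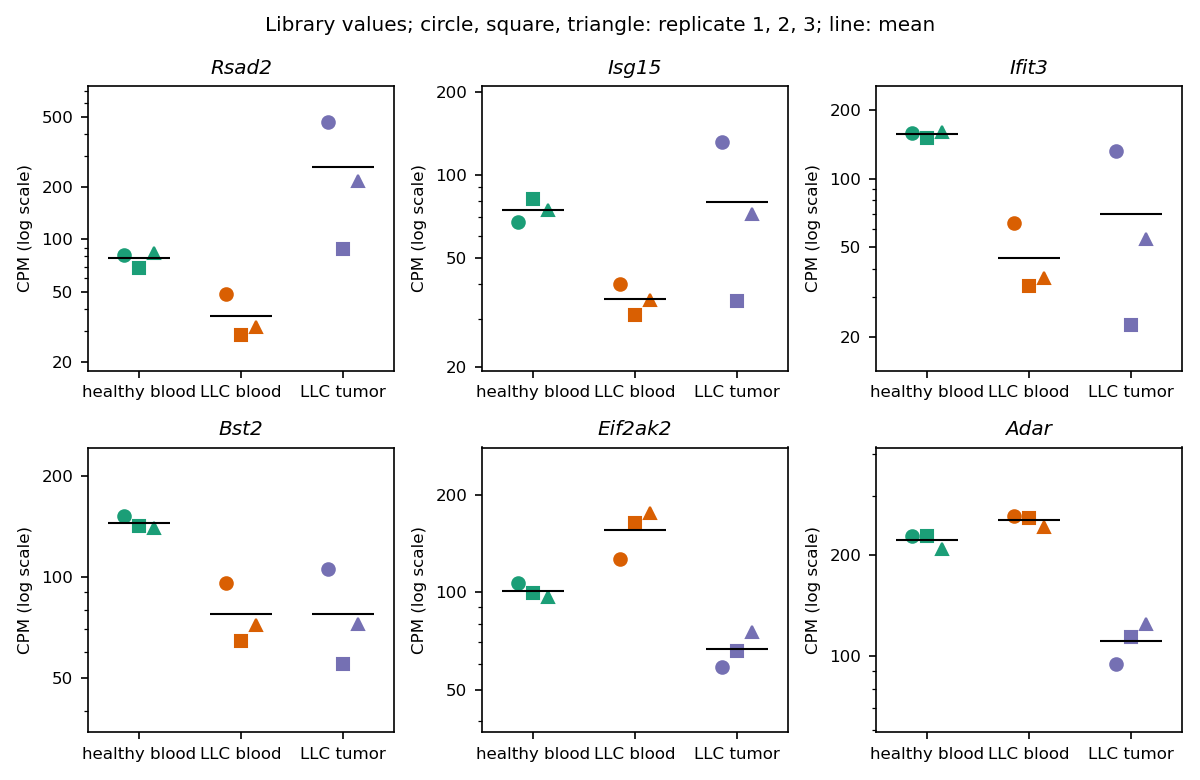
CPM on a log axis of Rsad2, Isg15, Ifit3, Bst2, Eif2ak2 and Adar in each library of the 3 groups, with circle, square and triangle for replicates 1, 2 and 3 and a line at the mean. For Rsad2, Isg15, Ifit3 and Bst2 the tumor circle (LLC tumor 1) is the highest of its group and the square (LLC tumor 2) the lowest, while for Eif2ak2 and Adar the circle is the lowest and the 3 tumor libraries lie below all blood libraries.

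The genes called lower in the tumor differed by at most 1.72-fold between tumor libraries. A call is easier to reach with a small spread, so this is partly built in. Of the uncalled genes with a negative fold change, some spread wider, such as Cmpk2 (3.83-fold). Others did not, such as Dhx58 (1.42-fold), and Trim25, called higher, differed 1.28-fold. Adar (ENSMUSG00000027951) was at 94.7, 114 and 125 CPM in LLC tumor, against 242 to 262 CPM in LLC blood and 209 to 228 CPM in healthy blood. All tumor libraries lay far below all blood libraries. Adar fell by 1.00 ± 0.08 SE on the log2 scale (adjusted p 4.34e-06), and by 0.94 to 1.19 over the 18 alternatives, each of which kept the call. Eif2ak2 was at 59.0, 66.0 and 75.3 CPM in LLC tumor and 127 to 176 CPM in LLC blood. It fell by 1.03 ± 0.12 SE (adjusted p 7.42e-05), and by 0.43 ± 0.12 SE (adjusted p 0.0112) against healthy blood. The call of Eif2ak2 held in all 18 alternatives as well.

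Parp9 (ENSMUSG00000022906) and Dtx3l (ENSMUSG00000049502) form a complex and overlap by 558 bases on chromosome 16 in RefSeq GRCm38.p6. The counting is not stated to use strand, and both had non-whole counts in all 9 libraries, so reads of the overlap may be split between them. Parp9 was at 59.8, 51.6 and 59.5 CPM in LLC tumor and 128, 135 and 140.5 CPM in LLC blood, beside 141, 139.7 and 131 CPM in healthy blood, and fell by 1.03 ± 0.12 SE (adjusted p 6.88e-05). Dtx3l was at 88.0, 54.1 and 78.1 CPM in LLC tumor and 209, 209 and 218 CPM in LLC blood, and fell by 1.30 ± 0.21 SE (adjusted p 0.000499), the lowest fold change of the 37. No library of LLC tumor reached LLC blood for either gene, and neither call changed in any of the 18 alternatives.

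Irf9 was at 98.1, 71.5 and 87.4 CPM in LLC tumor and 190.0, 182 and 201 CPM in LLC blood, beside 219, 209.9 and 193 CPM in healthy blood. Its tumor and LLC blood groups did not overlap, and it fell by 0.94 ± 0.17 SE (adjusted p 0.000894). Stat2 fell by 0.69 ± 0.15 SE (adjusted p 0.00264), and Irf7 was not called (-0.34 ± 0.34 SE, adjusted p 0.405). Irf7 libraries overlapped: LLC tumor 1, at 289.8 CPM, was above LLC blood 2 and 3, while LLC tumor 2, at 111 CPM, was far below. Without LLC tumor 1, Irf7 was called lower (-0.85, adjusted p 0.00639).

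Among the OAS enzymes, Oas3 was at 128, 86.7 and 131 CPM in LLC tumor and 313, 250 and 267 CPM in LLC blood, beside 298, 315 and 278 CPM in healthy blood. It fell by 1.04 ± 0.20 SE (adjusted p 0.00128), with no overlap. Oas2 fell by 0.56 ± 0.17 SE (adjusted p 0.0194), a call lost without LLC blood 1 (adjusted p 0.0530 at most). Oasl2 (-0.60 ± 0.26 SE, adjusted p 0.0726) and Oas1a (-0.50 ± 0.23 SE, adjusted p 0.0912) were not called with all libraries and were called lower without LLC tumor 1. With all libraries, then, within this family of 5, 1 member rose and 2 fell. Of the sensors, Ifih1 fell by 0.64 ± 0.17 SE (adjusted p 0.00894) and Zbp1 by 0.76 ± 0.22 SE (adjusted p 0.0141), while Dhx58 (-0.38, adjusted p 0.0924) and Ifi204 (0.04, adjusted p 0.877) were not called. Dhx58 was called lower without LLC tumor 1 (-0.53, adjusted p 0.0142).

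Parp14 fell by 0.91 ± 0.16 SE (adjusted p 0.000989), Xaf1 by 0.84 ± 0.21 SE (adjusted p 0.00575), Trim30a by 0.78 ± 0.17 SE (adjusted p 0.00296) and Samd9l by 0.64 ± 0.19 SE (adjusted p 0.0144). Ifi35 fell by 0.45 ± 0.17 SE (adjusted p 0.0430), a call that 10 of 18 alternatives lost (adjusted p up to 0.0993). Not called were, in log2 fold change, Herc6 (-0.43), Usp18 (-0.34), Ifitm3 (-0.30), Rtp4 (-0.29), Mx1 (-0.26), Mx2 (-0.02), Bst2 (0.25) and Ifi44 (0.55). Of these, Herc6, Usp18, Ifitm3, Rtp4, Mx1 and Mx2 were called lower without LLC tumor 1. Ifih1 was at 91.2, 63.9 and 77.3 CPM in LLC tumor, Parp14 at 218, 164 and 214 CPM and Bst2 at 106, 55.1 and 72.3 CPM.

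LLC tumor against healthy blood sets the tumor monocytes beside the blood of mice without a tumor. This comparison shares the LLC tumor libraries with the one before and the healthy blood libraries with the first, so its values are not independent of theirs. Most of the 37 genes were lower: 23 were called lower (33.0% of all genes tested) and 2, Rsad2 and Trim25, higher (33.5% of all genes tested). The median log2 fold change was -0.83, against -0.0025 over all genes, and -1.13 without LLC tumor 1. Rsad2 rose by 1.98 ± 0.55 SE on the log2 scale (adjusted p 0.0102), and by 1.01 (adjusted p 0.0221) without LLC tumor 1. Trim25 rose by 0.78 ± 0.18 SE (adjusted p 0.00339).

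For single genes the 3 comparisons gave different pictures. Ifi44, low in LLC blood, was also low in LLC tumor at 3.70, 1.68 and 2.51 CPM, and fell by 2.02 ± 0.43 SE against healthy blood (adjusted p 0.00246). Irf7 (-1.17 ± 0.34 SE, adjusted p 0.0126), Rtp4 (-1.25 ± 0.32 SE, adjusted p 0.00655), Oasl2 (-1.17 ± 0.27 SE, adjusted p 0.00350) and Ifitm3 (-0.92 ± 0.21 SE, adjusted p 0.00343) were called lower here and, with all 9 libraries, in neither of the other comparisons. The same held for Usp18 (-1.19 ± 0.36 SE, adjusted p 0.0162), Oas1a (-0.73 ± 0.23 SE, adjusted p 0.0201) and Dhx58 (-0.49 ± 0.18 SE, adjusted p 0.0343). Of these, all but Dhx58 were called lower in LLC blood with the 6 blood libraries alone. All were called lower in LLC tumor against LLC blood without LLC tumor 1. Against healthy blood, the calls of Usp18 and Oas1a were lost without LLC tumor 3, and that of Dhx58 in 6 of 18 alternatives. Xaf1 had the fold change -0.40 in the first comparison, -0.84 in the second and -1.24 here (adjusted p 0.000553). In contrast, Isg15 (0.34 ± 0.43 SE, adjusted p 0.505), Ifit2 (0.33 ± 0.51 SE, adjusted p 0.591), Oasl1 (0.41 ± 0.43 SE, adjusted p 0.422), Ifit1 (0.02 ± 0.47 SE, adjusted p 0.977) and Isg20 (-0.05 ± 0.28 SE, adjusted p 0.891) lay near the healthy level. Their tumor libraries overlapped healthy blood, and without LLC tumor 1 their fold changes were -0.42, -0.68, -0.34, -0.84 and -0.48. Of these 5, Ifit1 (adjusted p 0.0229) and Isg20 (adjusted p 0.0457) were then called lower. Ifit3 was not called against healthy blood (-0.91 ± 0.56 SE, adjusted p 0.178) and was called lower without LLC tumor 1 (-1.97, adjusted p 0.000986). Bst2, Mx1, Mx2, Herc6, Ifi204 and Cmpk2 were likewise not called with all libraries (-0.86 to -0.45) and were called lower without LLC tumor 1 (-1.39 to -0.81).

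The tumor libraries differed among themselves more than the blood libraries did. The highest library of a group was a median of 1.11 times the lowest over the 37 genes in healthy blood, 1.25 times in LLC blood and 1.72 times in LLC tumor. Over the 6883 genes that averaged 20 CPM or more the medians were 1.11, 1.12 and 1.25. Of the 37, all but Ifi44 reached that level, and 13 of these 36 differed more than 2-fold in LLC tumor (4.24% of the 6883 genes), 0 in LLC blood (1.55%) and 0 in healthy blood (1.34%). Ifi44 itself differed more than 2-fold in LLC tumor and in LLC blood. The widest were Ifit3 (5.81-fold), Rsad2 (5.34-fold), Ifit2 (5.27-fold) and Ifit1 (4.63-fold), and the narrowest was Parp9 (1.16-fold).

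The order of libraries was much the same from gene to gene. LLC tumor 1 was the highest tumor library in 31 of the 37 genes, against 21.1% of all genes tested, and LLC tumor 2 the lowest in 35, against 18.8% of all. On TMM-scaled CPM these counts were 35 and 37, against 44.9% and 35.8% of all genes. LLC blood 1 was the highest LLC blood library in 30 genes (38.3% of all genes), and LLC blood 2 the lowest in 28 (26% of all genes). In healthy blood the highest library was replicate 1 in 16 genes (36.9% of all genes), replicate 2 in 14 (30.2%) and replicate 3 in 7 (33%). The summed level of the 37 genes was 8783, 8774 and 8155 CPM in healthy blood, 7271, 6360.2 and 6735 CPM in LLC blood and 5972, 3361 and 4703 CPM in LLC tumor. The 37 genes share these 9 libraries, so such counts are not 37 separate observations.

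**Figure D4:**
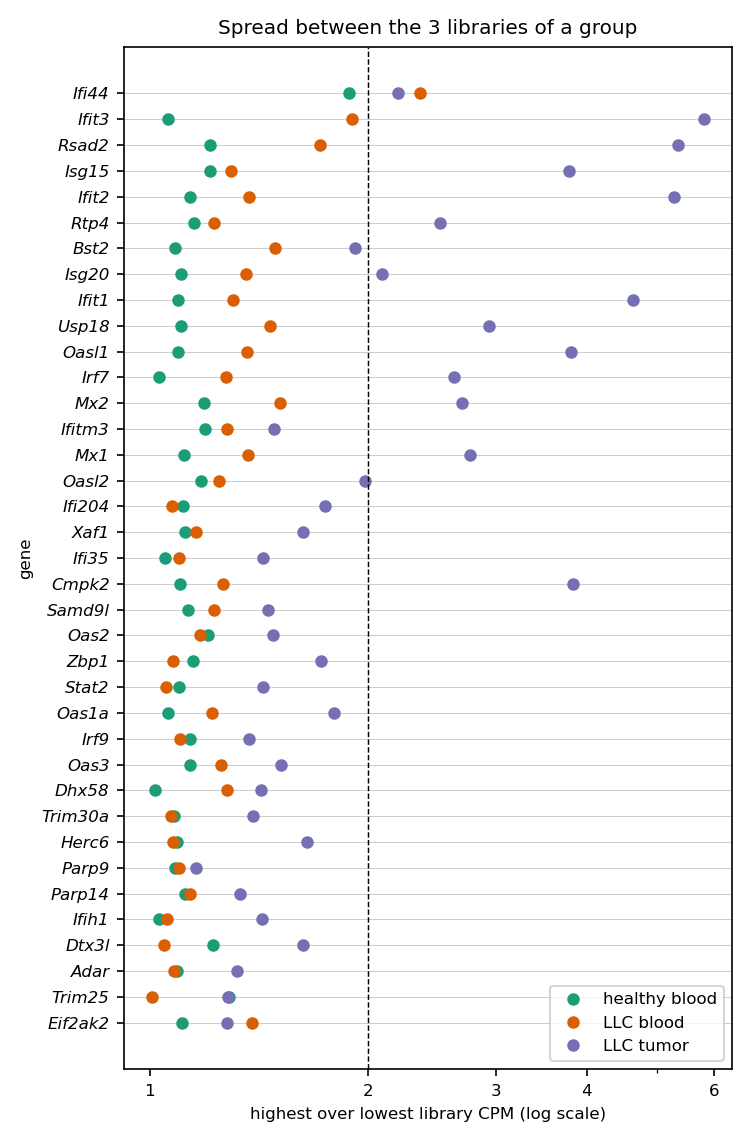
For each gene, the highest over the lowest library CPM within healthy blood (green), LLC blood (orange) and LLC tumor (purple), on a log axis with a dashed line at 2-fold. Healthy blood points stay below the line, 1 LLC blood point (Ifi44) and 14 LLC tumor points lie beyond it, and Ifit3, Rsad2, Ifit2 and Ifit1 reach furthest.

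Markers of other cells also differed between these libraries, not all lists in the same order. LLC tumor 1 held 853 CPM over 5 fibroblast markers (Col1a1, Col1a2, Col3a1, Dcn and Pdgfra), against 3295 and 3689 CPM in LLC tumor 2 and 3, and 12.8 CPM over 5 markers of LLC tumor cells, against 54.4 and 46.2 CPM. The 6 macrophage markers summed to 1829, 1615 and 1147 CPM in LLC tumor 1 to 3. LLC blood 1, the highest LLC blood library for most of the 37 genes, held 406 CPM of the fibroblast markers, against 1.25 and 1.59 CPM in LLC blood 2 and 3. The neutrophil markers stood in another order, at 3.35, 67.0 and 26.9 CPM in LLC blood 1 to 3. So did the erythroid markers, at 146, 835 and 329 CPM. The Ly6C-low monocyte markers were highest in LLC blood 1, at 2063, 1508 and 1616 CPM. Not all lists are given by library here. The part of these cells in the order of the libraries was not tested.

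Markers of lymphoid cells, dendritic cells and macrophages summed to less in LLC blood than in blood of healthy mice. The 6 NK cell markers summed to 163 to 362 CPM in healthy blood, 23.7 to 42.2 CPM in LLC blood and 0.778 to 2.75 CPM in LLC tumor. The 6 T cell markers summed to 31.1 to 137, 3.04 to 4.59 and 0.993 to 1.86 CPM in the same order. Plasmacytoid dendritic cells, a main source of type I interferon, had 6 markers with sums of 2.72 to 20.1, 0.531 to 1.43 and 0.361 to 0.620 CPM. Conventional dendritic cells (5 markers) had 67.6 to 83.9, 24.1 to 38.7 and 5.42 to 8.42 CPM, and Ly6C-low monocytes (6 markers) 1896 to 1946, 1508 to 2063 and 699 to 912 CPM. Most of that last tumor sum was Nr4a1, at 467 to 601 CPM in LLC tumor and 435 to 529 CPM in healthy blood. Ace, Spn, Treml4 and Eno3 of the same list were lower in every tumor library than in any blood library. The sum of the macrophage markers lay between 1235 and 1440.0 CPM in healthy blood and between 651 and 679.6 CPM in LLC blood, without overlap. The B cell markers Cd79a and Ms4a1 and the NK cell marker Klre1 were listed at 0 in all LLC tumor libraries. The part of these cells in the lower ISG levels was not tested.

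The genes upstream of the 37 were looked at in lists that hold some of the 37 as well. Of 9 interferon genes, 1 (Ifng, interferon-gamma) passed the filter on low counts. It is named here after its values were seen. Ifng had 11, 22 and 46 counts in healthy blood, 2 in each LLC blood library and 0, 3 and 1 in LLC tumor, and was called lower in LLC blood (log2 fold change -3.57 ± 0.74 SE, adjusted p 0.00744). It is a product of NK and T cells, whose markers were lower in the same libraries, and their part was not tested. Ifnb1, interferon-beta, had 10, 2 and 1 counts in LLC tumor, 0 in all LLC blood libraries and 0, 0 and 1 in healthy blood. These counts allow no comparison beyond the values, and LLC tumor 1 held most of them.

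The genes of the receptors and their kinases moved in different directions. The receptor chain Ifnar1 was at 204 ± 6.36 CPM in healthy blood, 209 ± 4.64 in LLC blood and 275 ± 22.4 in LLC tumor (SD, n = 3). Its log2 fold change was 0.01 ± 0.13 SE in blood (adjusted p 0.976) and 0.61 ± 0.13 SE in LLC tumor against LLC blood (adjusted p 0.00246). Ifnar2 was not called in any of the 3 comparisons (-0.28, 0.13 and -0.15). The kinase Tyk2 was at 245 ± 7.63 CPM in healthy blood, 349 ± 22.1 in LLC blood and 129 ± 17.5 in LLC tumor. Tyk2 rose in LLC blood (0.49 ± 0.07 SE, adjusted p 0.00174) and fell in the tumor (by 1.25 ± 0.07 SE, adjusted p 9.76e-07), the pattern of signs seen for Eif2ak2. Jak1 was not called in either of these (0.24 and 0.17). In LLC tumor against healthy blood Jak1 was called higher, at 356, 356 and 345 CPM against 276, 312 and 313 CPM.

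Jak2, which serves the interferon-gamma receptor, rose in LLC tumor against LLC blood (1.25 ± 0.12 SE, adjusted p 1.94e-05), while the receptor chain Ifngr1 fell by 0.95 ± 0.12 SE (adjusted p 0.000133).

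Of 18 sensors and adaptors that lead to interferon production, 2 were called higher (14.0% of all genes) and 2 lower (9.61%) in LLC blood. Ikbke (0.55 ± 0.10 SE) and Myd88 (0.40 ± 0.12 SE) rose, and Aim2 (-0.41 ± 0.09 SE) and Irf3 (-0.28 ± 0.08 SE) fell. For LLC tumor against LLC blood, 3 were called higher (29.6% of all genes) and 11 lower (31.7%). The endosomal receptors Tlr9 (-1.60 ± 0.20 SE) and Tlr7 (-1.54 ± 0.18 SE), the DNA sensor Mb21d1 (cGAS, -1.39 ± 0.19 SE) and Myd88 (-1.16 ± 0.12 SE) had the lowest fold changes of those with at least 20 CPM. Ticam1, Ikbke and Tbk1 were called higher (0.46, 0.38 and 0.22). In CPM, without TMM scaling, the groups of Tbk1 and Ticam1 overlapped. Tbk1 was at 74.8, 92.2 and 90.8 CPM in LLC tumor and 74.8, 89.7 and 88.9 CPM in LLC blood. For Ticam1, LLC tumor 2 (42.6 CPM) lay below LLC blood 1 (43.5 CPM).

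Of 16 negative regulators, 3 were called higher and 1 lower in LLC blood (14.0% and 9.61% of all genes), and 3 higher and 10 lower in LLC tumor against LLC blood (29.6% and 31.7% of all genes). Socs3, an inhibitor of JAK kinases, was at 98.6 ± 12.9 CPM in healthy blood, 241 ± 46.6 in LLC blood and 589 ± 4.82 in LLC tumor. It rose in both steps (1.26 ± 0.16 SE, adjusted p 0.000779, and 1.5 ± 0.16 SE, adjusted p 3.35e-05). The phosphatases Ptpn1 (0.40) and Ptpn11 (0.25) were the others that rose in blood. Samhd1, which depletes nucleotides, fell in the tumor by 1.34 ± 0.12 SE, the phosphatase Ptpn6 by 1.28 ± 0.11 SE and the DNA exonuclease Trex1 by 1.20 ± 0.23 SE.

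A further list of 67 ISGs beside the 37 had 60 genes tested, and Ifi207, Ifi209, Ifi211, Ifi213, Trim30c and Rnf213 were not used here. In LLC blood 3 were called higher and 11 lower (14.0% and 9.61% of all genes), with a median log2 fold change of -0.34, and in LLC tumor against LLC blood 8 were higher and 29 lower (29.6% and 31.7% of all genes), with a median of -0.42. Against healthy blood, in LLC tumor, 7 were higher and 38 lower (33.5% and 33.0% of all genes), with a median of -0.91. For the 37 the medians were -0.39, -0.38 and -0.83. Ifi205 (-1.93), Ly6a (-0.92), Trim34a (-0.56) and Ifitm6 (-0.48) fell in blood, and Slfn9 (1.40) and Helz2 (0.49) rose. In the tumor Trim34a (-1.97), Nod1 (-1.92), Tlr7 and Trim21 (-1.49) fell.

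Cxcl10, a chemokine that draws T cells, rose most in LLC tumor against LLC blood among genes of that list with at least 20 CPM, followed by Ifitm1 (2.75), Slfn4 (2.46) and Ly6a (1.81). Cxcl10 was at 28.5, 31.5 and 30.0 CPM in healthy blood, 6.50, 3.53 and 3.82 CPM in LLC blood and 228, 40.1 and 85.1 CPM in LLC tumor. Its tumor libraries stood in the order of those of Rsad2, Isg15 and Ifit2, with LLC tumor 1 highest and LLC tumor 2 lowest, and every one was above both blood groups. The log2 fold change of Cxcl10 was 5.01 ± 0.70 SE (adjusted p 0.000201, edgeR).

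Fold changes of genes with and without the promoter match lay side by side, with no test. In LLC blood against healthy blood the median log2 fold change was -0.43 over the 12 genes with a match and -0.39 over the 15 genes whose window held none. Between LLC tumor and LLC blood the medians were -0.40 and -0.43, with ranges from -1.04 to 3.12 and from -1.30 to 1.42. Rsad2 and Isg15, which rose in the tumor, and Eif2ak2 and Oas3, which fell, all carry a match, that of Eif2ak2 after the start site.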

How the data were processed

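RNA was measured in 9 libraries (3 groups of 3), made with TRIzol and a TruSeq RNA kit per the labels' protocols. The authors deposited a table of estimated counts (expected counts, not normalized) and a table of CPM values for 10693 genes. Per the submitters' processing notes the tools include Trim Galore, cutadapt 3.4, STAR 2.6.1d, Salmon 1.9.0 and edgeR, and the build is mm10; which tool made the tables is not given in the sources used here. The letters BM in the heads of the blood columns were taken to mean blood monocyte, since the titles give blood as the source.

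Estimated counts were rounded and tested with edgeR 4.0.16 (R 4.3.3) in 1 quasi-likelihood fit with TMM factors and the filterByExpr filter, Benjamini-Hochberg adjusted over all 12337 genes in each of 3 comparisons, after the script was tested on simulated data. CPM was recomputed over all entries. The deposited CPM values were whole multiples of 1 read in 100% of cases (tolerance 0.02), and the recovered reads served as an alternative chosen after seeing the data. The other alternatives were RLE and upper-quartile factors, library totals, DESeq2 1.42.0, limma-voom with quality weights (limma 3.58.1), no filter, only the 6 libraries compared, a replicate block, each library left out and stricter thresholds.

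All 37 genes are named. Values in each library of the groups compared are given for those called in blood, for the 6 largest and 6 lowest fold changes in LLC tumor against LLC blood with a mean of at least 20 CPM, for those against the majority sign in blood, and for some others. Genes of the other lists were named if always listed (Ifnar1, Ifnar2, Jak1, Tyk2) or if called, with at least 20 CPM and among the 4 largest changes. Some genes of these lists, and the list totals that need them, are not reported here. The members and lists were chosen with earlier results of these data known. Promoter windows, positions and overlaps are from RefSeq GRCm38.p6. Replicate libraries of a group differed by more than sampling noise (chi-square per gene 4.53 to 46.5), so none was counted as a duplicate.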

Additional observations from a re-analysis of the deposited data

How the results depend on the processing

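Percentages in brackets are the share of all genes tested that was called the same way in that setting. In LLC blood against healthy blood no gene of the 37 changed sign under any alternative. The number called lower (4, 9.61%) was 7 with upper-quartile factors (14.0%), 8 with DESeq2 (12.7%), 20 with limma-voom (23.4%), 24 with only the 6 libraries compared (20.9%), 1 at an adjusted p under 0.01 (3.40%) and 2 (2.99%) with a log2 fold change also beyond 1 in size (the fold threshold below); it ran from 1 to 20 when 1 library was left out (3.67% to 22.4%). The number called higher (1, 14.0%) was 2 with limma-voom (24.3%) and 0 with the fold threshold (3.24%). The median was -0.44 with upper-quartile factors and with limma-voom, and -0.46 to -0.35 with 1 library left out.

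In LLC tumor against LLC blood the number called lower (15, 31.7%) was 24 with limma-voom (37.5%) and 4 with the fold threshold (11.4%), and 13 to 26 with 1 library left out (27.3% to 32.8%). The number called higher (6, 29.6%) was 3 with only the 6 libraries compared (29.0%) and 1 at an adjusted p under 0.01 (24.0%), and 1 to 8 with 1 library left out (26.8% to 34.3%), and the median ran from -0.77 to -0.18. In LLC tumor against healthy blood the number called higher (2, 33.5%) was 1 under each stricter threshold (27.5% and 19.7%), and 2 to 4 with 1 library left out (4 without LLC tumor 2, 31.4%). The number called lower was 11 with the fold threshold (12.7%), and the median ran from -1.13 to -0.62 with 1 library left out. Scaling by library totals alone moved the median of all genes to -0.23 in LLC tumor against LLC blood and to -0.17 against healthy blood, and upper-quartile factors moved the latter to -0.10; with library totals the 37 genes had medians of -0.59 and -0.998 and 20 and 28 calls lower (40.6% and 40.1%). Stricter thresholds call fewer genes by construction, and the cause of the other moves was not tested.

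Signs turned for 13 genes that lay near 0 or spread widely in the tumor, and no gene was called in both directions. Between LLC tumor and LLC blood, Mx2 was 0.033 with RLE factors and 0.039 with DESeq2. Ifi204 was -0.020 with upper-quartile factors, -0.19 with library totals, -0.16 with limma-voom, -0.022 with no filter and -0.0041 with recovered reads. With 1 library left out the log2 fold changes ran from -0.60 to 0.30 for Mx2, -0.27 to 0.28 for Ifi204, -0.072 to 1.39 for Ifit3, -0.15 to 0.50 for Bst2, -0.87 to 0.012 for Usp18, -0.74 to 0.089 for Mx1, -0.93 to 0.17 for Cmpk2 and -0.77 to 0.029 for Rtp4, lowest without LLC tumor 1 and highest without LLC tumor 2. Between LLC tumor and healthy blood, Ifit1 was -0.11 with upper-quartile factors, -0.23 with library totals, -0.63 with limma-voom, -0.050 with no filter, -0.0013 with only the 6 libraries compared and -0.044 with recovered reads. Isg20 was 0.0012 with DESeq2, and with limma-voom Isg15 was -0.23, Oasl1 -0.11 and Ifit2 -0.44. With 1 library left out they ran from -0.84 to 0.44 for Ifit1, -0.48 to 0.24 for Isg20, -0.42 to 0.73 for Isg15, -0.34 to 0.81 for Oasl1 and -0.68 to 0.77 for Ifit2, again lowest without LLC tumor 1 and highest without LLC tumor 2.

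The deviations of same-numbered libraries from their group means had correlations from -0.102 to 0.298. Differently numbered libraries were not compared, so these values cannot show whether replicate numbers pair the libraries. With the numbers as a replicate block, 6 genes were called lower (9.44%) and 1 higher (13.2%) in LLC blood against healthy blood. In LLC tumor against LLC blood 18 were lower (31.3%) and 5 higher (29.1%). In LLC tumor against healthy blood, where Ifit1 was -0.21, 28 were lower (32.5%) and 2 higher (33.1%). With 3 libraries a group, low genes such as Ifi44 rest on few counts.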
